A study of Mus musculus with 16 samples.

Results

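The genes described here are Aldh1a1 and 9 further genes of retinoid (vitamin A) metabolism, Aldh1a2, Aldh1a3, Rbp2, Lrat, Bco1, Isx, Rdh7, Dhrs9 and Cyp26b1. They were found by symbol among the 24940 genes counted in mouse ileum, and all 10 were detected in all 16 libraries. Aldh1a1 was chosen by its measured counts, which were lower in female mice lacking hepatocyte Bcl6, and the other 9 were taken as further steps of the same pathway. The lower level of Aldh1a1 in females is therefore a description here, and no test is read from it.

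Poly(A) RNA was sequenced from 1 cm of ileum next to the cecum of 16 C57BL/6 mice, in 4 groups of 4. All mice carried loxP-flanked Bcl6, the gene of a transcriptional repressor. Bcl6fl/fl mice (WT) were the controls, and Bcl6LKO mice (LKO) also carried Albumin-Cre, which deletes Bcl6 in hepatocytes, so that the ileum is not the deleted tissue. Male and female mice of each genotype were compared, to ask how the ileum changes when the liver loses BCL6. The labels give no age, and the study's methods describe fed or briefly fasted animals. The sample titles call the libraries of a group replicates without naming separate animals, and p-values measure the spread between these libraries.

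Retinoids reach the intestine as retinyl esters and as carotenoids of the diet. Enterocytes cleave beta-carotene to retinaldehyde, bind retinol and retinaldehyde to a cellular carrier, and esterify retinol for export in chylomicrons. A smaller part is oxidised, first to retinaldehyde and then, irreversibly, to retinoic acid, which binds nuclear receptors in epithelial and immune cells. CYP26 enzymes break retinoic acid down. In the gut, retinoic acid is known for imprinting gut homing on lymphocytes and for switching on ISX, a repressor that turns carotenoid uptake and cleavage down.

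Depth, as the sum of gene counts, was 15.7 to 20.5 M for 15 libraries, with 60.3 M for female LKO replicate 1. Levels are counts per M assigned (CPM, M for mega) after scaling by trimmed mean of M-values (TMM). The ileal bile acid carrier Fabp6 stood at 2662 to 5436 CPM and the bile acid transporter Slc10a2 at 426 to 820.3 CPM, while 5 markers of the upper small intestine summed to 35.7 to 89.9 CPM, with Cyp2c65 at 27.4 to 85.0, Fabp1 at 1.12 to 13.9 and the lactase gene Lct at 0.66 CPM or less. Bcl6 lay between 9.25 and 26.1 CPM in every library. It was at 9.25 to 15.11 CPM in female WT and 15.15 to 26.09 in female LKO. In males it was at 14.09 to 17.83 CPM in WT and 17.27 to 21.76 in LKO. No test of these differences is given, and ileal levels do not check the deletion in hepatocytes. In 4 libraries the summed level of 5 B-cell markers was above 40 CPM: 79.3 in male WT replicate 2, 43.5 in female WT replicate 3, 134 in female LKO replicate 2 and 254 in female LKO replicate 3. The other 12 libraries lay between 8.92 and 16.2 CPM. Female LKO replicates 2 and 3 also had the highest Bcl6, at 23.6 and 26.1 CPM.

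Aldh1a1 lies on mm10 chr19:20492583-20643463 on the plus strand, and a close copy, Aldh1a7, lies beside it at chr19:20692953-20727556 on the minus strand. ALDH1A7 is a rodent enzyme known to act poorly on retinaldehyde. RefSeq gives Aldh1a1 a start at 20492583 and another at 20601968, which are 109385 bases apart. The 250 bases before the second start and before the start of Aldh1a7 are shown because they tell how alike the copies are outside their exons. The capitals mark a run of 65 bases, from -94 to -30 of each start, that is identical in the pair. Both are from RefSeq on GRCm38.p6, the assembly of mm10, written 5′ to 3′ on the gene's own strand, at chr19:20601718-20601967 for Aldh1a1 and chr19:20727557-20727806 for Aldh1a7.
Aldh1a1: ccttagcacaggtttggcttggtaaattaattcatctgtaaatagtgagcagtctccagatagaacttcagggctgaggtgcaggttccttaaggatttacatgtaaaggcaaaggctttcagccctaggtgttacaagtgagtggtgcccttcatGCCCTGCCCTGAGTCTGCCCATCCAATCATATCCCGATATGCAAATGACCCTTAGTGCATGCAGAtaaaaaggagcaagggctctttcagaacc
Aldh1a7: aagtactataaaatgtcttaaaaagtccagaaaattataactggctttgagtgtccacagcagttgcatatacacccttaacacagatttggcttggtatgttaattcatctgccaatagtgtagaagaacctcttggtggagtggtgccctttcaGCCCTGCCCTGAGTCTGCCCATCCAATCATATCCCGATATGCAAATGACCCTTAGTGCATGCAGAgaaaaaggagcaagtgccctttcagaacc

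The copies were also compared along their transcripts. Of the 2259 windows of 100 bases, the read length, along a GENCODE transcript of Aldh1a1, 1 was identical to a stretch of Aldh1a7, and 372 (16.5%) came within the 4 mismatches that the authors' alignment allowed. Reads from an identical window fit both genes and could have been lost. Reads from the other windows differ from the copy and could still be placed, so 16.5% is not a share of lost reads. Aldh1a2 and Aldh1a3 had 0 windows within 4 mismatches of another of the 3 members Aldh1a1, Aldh1a2 and Aldh1a3. Rdh7 belongs to a cluster of like genes. Of its 1579 windows, 332 (21%) came within 4 mismatches of Rdh1, Rdh9, Rdh16, Rdh16f2 or Rdh19. Of these, 34 were identical, so that its level is in part uncertain. For Aldh1a1 and Rdh7 the transcript used here was not matched to the RefSeq transcript that was counted, so their window shares may differ for it. No exon of a member overlapped an exon of another annotated gene.

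Promoter windows of 300 bases (250 before and 50 after a RefSeq start, GRCm38.p6) matched 9 of the 10 genes, all but Aldh1a3. Both strands were searched. The retinoid receptor core hexamer AGGTCA occurred in the windows of Rbp2, Bco1, Rdh7 and Dhrs9, which is 4 of 9 genes. By window this was 4 of 11, beside 16.3% of 32851 windows of all genes. The related AGTTCA occurred in Rbp2 (1 of 11 windows), and in 14% of all windows. The full elements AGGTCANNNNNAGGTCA, AGGTCANNAGGTCA and AGGTCANTGACCT, each of which contains the hexamer, occurred in 0 of 9, and each in 0.00913% of all windows. CCAAT was present for Aldh1a1, Aldh1a2, Lrat and Rdh7 (4 of 11 windows), and in 37.4% of all windows. For Aldh1a1 it stood in the window of the second start. TATAAA was present for Rbp2, Bco1, Dhrs9 and Cyp26b1 (4 of 11 windows), and in 13.6% of all windows. These are matches of letters and are not measured sites.

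Levels of different genes were compared per kilobase of exon (CPM per kb). Rbp2, Isx and Aldh1a1 were far above the rest. Rbp2, the carrier of retinol and retinaldehyde in enterocytes, stood at 126.4 ± 30 CPM per kb (SD, n = 16), Isx at 90.42 ± 11.4 and Aldh1a1 at 59.5 ± 12.7. The ranges of neighbours in this order overlapped, since Rbp2 began at 89.7 and Isx reached 108, and Isx began at 70.8 and Aldh1a1 reached 85.1. The lowest library for Aldh1a1, at 45.5 CPM per kb, was well above the highest for any of the 7 other members. Those were Aldh1a3 at 6.72 ± 1.03, Aldh1a2 at 5.23 ± 0.69, Bco1 at 4.03 ± 0.97, Rdh7 at 2.42 ± 1.29, Lrat at 2.38 ± 0.73, Cyp26b1 at 1.56 ± 0.96 and Dhrs9 at 1.15 ± 0.79. Neighbours among these 7 had overlapping ranges, as the plot of levels per kb shows.

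**Figure D1:**
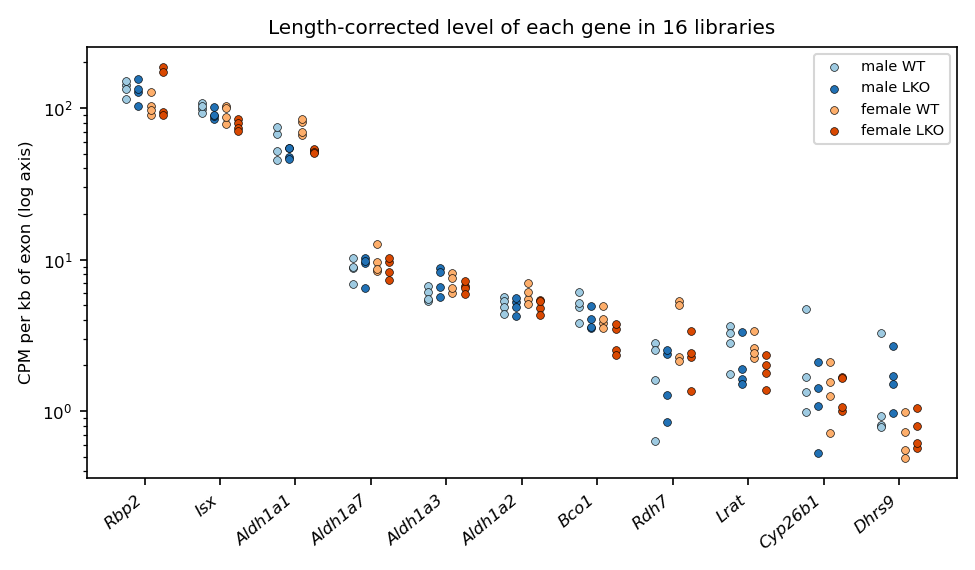
Each point is 1 of 16 libraries, with the gene on the x axis in order of its mean and the level in CPM per kb of exon on a log y axis, coloured by group. Rbp2, Isx and Aldh1a1 form an upper tier from 45.5 to 188 CPM per kb, and the other genes lie at 12.6 or lower.

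The 3 retinaldehyde dehydrogenases carry out the last step to retinoic acid. Aldh1a1, the enzyme of epithelial cells, was the most abundant of the Aldh1a genes in the ileum. Aldh1b1, a mitochondrial aldehyde dehydrogenase of the wider pathway list, stood higher, at 404.7 ± 35.3 CPM per kb, and was not counted among them. Of the summed level per kb of Aldh1a1, Aldh1a2, Aldh1a3 and Aldh1a7, Aldh1a1 made up 66.2% to 79.1% in every library, Aldh1a7 9.37% to 14%, Aldh1a3 5.55% to 11.9% and Aldh1a2 4.63% to 7.92%. The mean share of Aldh1a1 was 76.7% in female WT, 71.8% in female LKO, 74.9% in male WT and 70.5% in male LKO mice.

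Aldh1a1 rested on 2601 to 9673 counts per library. It stood at 239, 198, 206 and 253 CPM in female WT and at 156, 159, 152 and 150.5 CPM in female LKO replicates 1 to 4. Every female LKO library was below every female WT library, and the 4 LKO libraries were close to each other (154.4 ± 3.82 CPM, against 224 ± 26.3 in WT, n = 4 each). On the log2 scale the fold change was -0.53 (SE 0.08), a level 0.692 times that of WT. It was 1 of the 6 genes that edgeR's quasi-likelihood test called at an adjusted p of 0.05 among 15298 in females (0.0392% of genes), which is the value by which it was chosen. With 1 library left out, the adjusted p lay between 0.0305 and 0.166 and stayed below 0.05 without female WT replicate 2 only. Without the B-cell-rich libraries the log2 fold change was -0.58 with an adjusted p of 0.188. The sample titles carry running numbers that fall into sets, and the sets with both female genotypes gave log2 differences of -0.48 (2 WT and 1 LKO library) and -0.72 (1 WT and 3 LKO libraries).

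The female contrast that chose Aldh1a1 did not use male mice. Aldh1a1 stood at 199, 224, 154 and 135 CPM in male WT and at 141, 162, 161 and 138 CPM in male LKO replicates. The WT libraries split into a higher and a lower pair, the LKO libraries lay inside their range, and the groups overlapped. The mean was 178 ± 40.8 CPM in WT and 150.6 ± 13.1 in LKO (n = 4 each), and the log2 fold change of -0.24 (SE 0.15) did not pass edgeR's test (adjusted p = 0.999). The male effect minus the female effect was 0.29 (SE 0.18) on the log2 scale (edgeR adjusted p = 0.851). That value holds the female contrast that chose Aldh1a1, so it is a description and no test is read from it. The set of title numbers that held both male genotypes had 1 library of each, WT replicate 4 and LKO replicate 1, and there the log2 difference was 0.06. Averaged over both sexes, which includes the female contrast, the log2 fold change was -0.39 (SE 0.09).

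**Figure D2:**
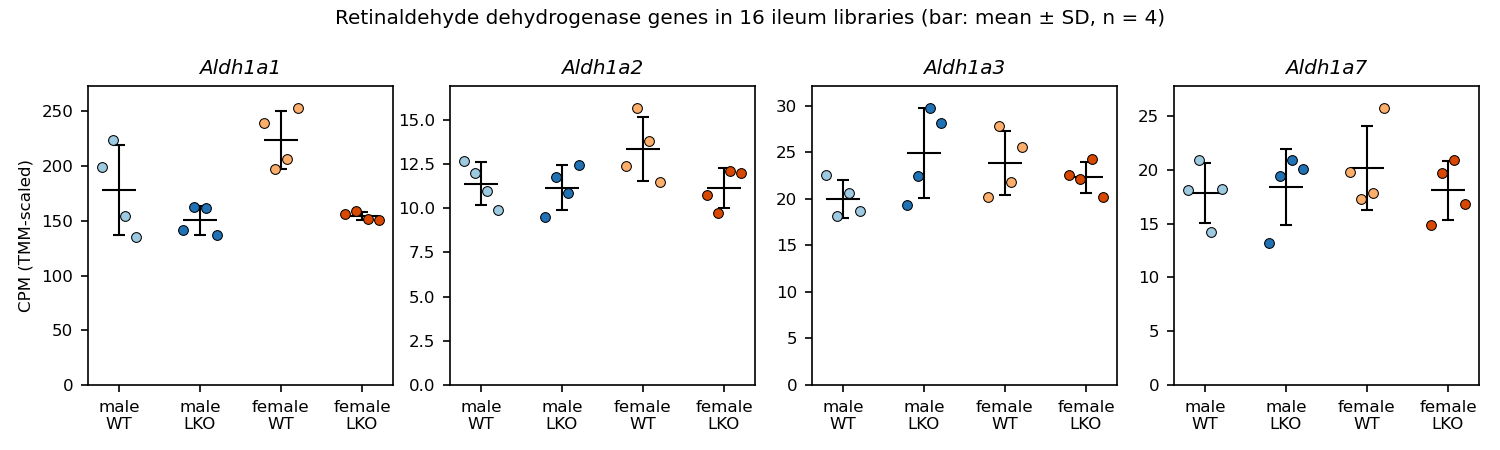
Points are libraries, the y axis is CPM from 0, and the bars are group means ± SD (n = 4), for 3 retinaldehyde dehydrogenase genes and the copy Aldh1a7. For Aldh1a1 the 4 female LKO libraries (150.5 to 159 CPM) lie below all female WT libraries (198 to 253 CPM), while the male groups overlap, as do the groups of the other 3 genes.

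Aldh1a7 did not show a difference of that size. Its female means were 20.2 ± 3.87 CPM in WT and 18.1 ± 2.73 in LKO, with overlapping groups, and the change on the log2 scale was -0.16 (SE 0.14, adjusted p = 0.671 by edgeR). In males it was 0.05 (SE 0.15, adjusted p = 0.999).

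Aldh1a2, the enzyme of stromal and dendritic cells, stood at 12.4, 15.7, 13.8 and 11.5 CPM in female WT and at 10.7, 9.7, 12.1 and 12.0 in female LKO replicates. The groups overlapped, although the mean was lower in LKO (log2 fold change -0.26, SE 0.12). In males it ranged from 9.9 to 12.7 CPM in WT and from 9.52 to 12.4 in LKO, with a log2 fold change of -0.03 (SE 0.12). The summed level of 7 dendritic cell and macrophage markers lay between 154 and 213 CPM over all libraries.

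Aldh1a3, a further retinaldehyde dehydrogenase of epithelia, had a higher mean in male LKO than in male WT mice. It stood at 22.6, 18.1, 20.6 and 18.7 CPM in male WT and at 19.3, 22.5, 29.7 and 28.1 in male LKO replicates. LKO replicates 3 and 4 were above all WT libraries, and replicates 1 and 2 were among them. This gave a log2 fold change of 0.32 (SE 0.13), which did not pass edgeR's test over all genes (adjusted p = 0.873). In females it was -0.09 (SE 0.10), and the difference between the sexes of 0.40 (SE 0.17) did not pass the test either (adjusted p = 0.845).

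Carotenoid cleavage and retinol storage come before that step. Bco1 encodes the oxygenase that cleaves beta-carotene into retinaldehyde. In females it stood at 9.6, 8.89, 12.4 and 10.3 CPM in WT and at 8.79, 9.52, 6.34 and 5.88 in LKO replicates. The groups overlapped through LKO replicate 2. In males the values were 12.3, 15.3, 9.58 and 13.1 in WT and 12.4, 10.2, 8.87 and 9.03 in LKO, again with overlap. Log2 fold changes were -0.42 (SE 0.17) in females and -0.30 (SE 0.15) in males, and -0.36 (SE 0.12) over both sexes, where edgeR gave an adjusted p of 0.208.

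Lrat encodes lecithin:retinol acyltransferase, which makes retinyl esters. Its female WT values were 13.8, 12.0, 12.9 and 18.1 CPM, and its female LKO values 7.34, 12.5, 10.8 and 9.54. LKO replicate 2 lay inside the WT range and the other 3 below it. In males WT replicates were at 15.1, 19.5, 9.41 and 17.5 CPM, and LKO replicates at 17.9, 10.2, 8.75 and 8.04. Each male group held 1 library at the level of the other genotype. Their log2 fold changes were -0.51 (SE 0.17) in females, -0.45 (SE 0.31) in males and -0.48 (SE 0.18) over both sexes (edgeR adjusted p = 0.317).

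Isx, the intestinal homeobox repressor of Bco1 and of the scavenger receptor gene Scarb1, varied little within groups. It stood at 185, 179, 141 and 156 CPM in female WT and at 151, 143, 131 and 126 in female LKO replicates. WT replicate 3 lay inside the LKO range. In males the WT values were 176, 165, 193 and 184 CPM and the LKO values 183, 152, 158 and 161, with LKO replicate 1 inside the WT range. The log2 fold change was -0.26 (SE 0.09) in females, -0.13 (SE 0.07) in males and -0.20 (SE 0.06) over both sexes (edgeR adjusted p = 0.174). After removal of group means, Isx followed neither Bco1 (Pearson's r = -0.02, Spearman's rho 0.04, permutation adjusted p = 0.947 and 0.891, n = 16) nor Scarb1 (r = 0.09, rho 0.09, permutation adjusted p = 0.947 and 0.891). Leaving out the 2 libraries with the most distant Isx values, r was 0.22 and -0.04. These were 2 of 6 relations computed. Within sets of title numbers, the male pair differed by 0.03 for Lrat, -0.07 for Bco1 and -0.01 for Isx on the log2 scale. The female sets gave -0.80 and -0.73 for Lrat, -0.07 and -0.53 for Bco1, and -0.27 and -0.22 for Isx.

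Rbp2 moved the other way in 2 female libraries. Female LKO replicates were at 62.3, 125, 115 and 59.8 CPM, and female WT replicates at 59.9, 69.2, 64.5 and 85.1. LKO replicates 2 and 3 were above every other library of the series, and replicates 1 and 4 were at the lower end of WT. The log2 fold change of 0.38 (SE 0.29) did not pass edgeR's test (adjusted p = 0.622). The summed level of 7 enterocyte markers was 11040 CPM in LKO replicate 2 and 10050 in replicate 3, against 7614 and 7908 in LKO replicates 1 and 4 and 7103 to 9945 in female WT. The same 2 libraries were those richest in B-cell markers, and without the B-cell-rich libraries the female log2 fold change was -0.22. The part of the cell mixture in this value was not tested, and in whole ileum fewer cells of a type cannot be told apart from less RNA per cell. In males Rbp2 ranged from 76.6 to 101 CPM in WT and from 68.7 to 103 in LKO.

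**Figure D3:**
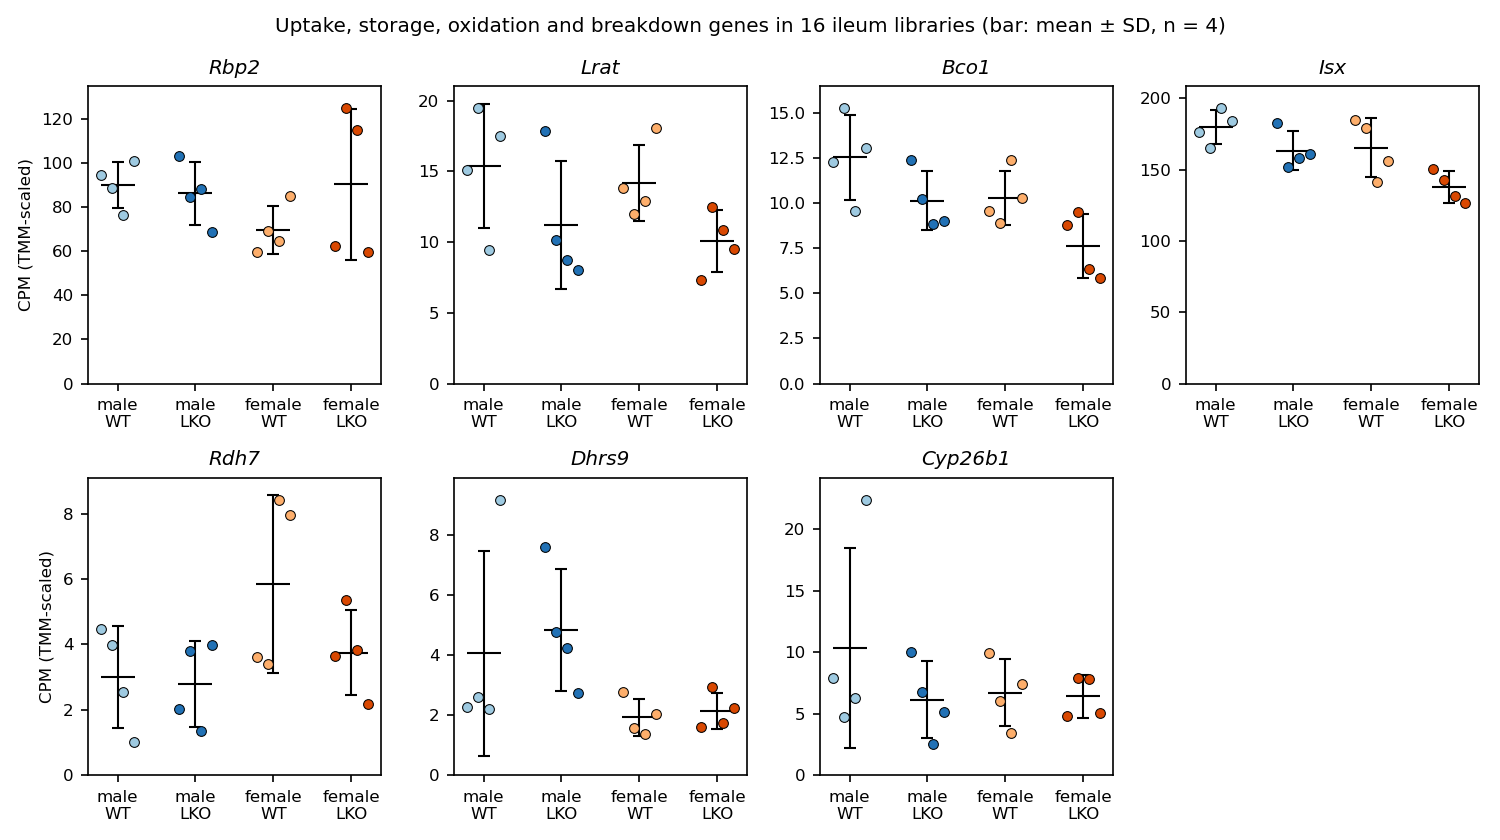
Points are libraries, the y axis of each panel is CPM from 0, and the bars are group means ± SD (n = 4). Bco1, Lrat and Isx have lower LKO means in both sexes with overlapping groups, Rbp2 splits among female LKO libraries, and Dhrs9 and Cyp26b1 are highest in male WT replicate 4.

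Rdh7 and Dhrs9 encode short-chain dehydrogenases that oxidise retinol to retinaldehyde. Rdh7 was low and uneven, with 3.62, 3.39, 8.44 and 7.97 CPM in female WT, 3.64, 5.37, 3.81 and 2.17 in female LKO, 4.46, 4.0, 2.54 and 1.02 in male WT, and 2.03, 3.8, 1.35 and 4.0 in male LKO replicates. All 4 groups overlapped. The log2 fold change was -0.65 (SE 0.37) in females and -0.09 (SE 0.48) in males.

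Dhrs9 stood at 2.76, 1.55, 1.37 and 2.03 CPM in female WT and at 1.6, 2.93, 1.74 and 2.23 in female LKO replicates. In males it was 2.28, 2.6, 2.2 and 9.19 in WT and 7.6, 4.76, 4.23 and 2.75 in LKO. Male WT replicate 4 and male LKO replicate 1 were the highest, and 3 of the male WT libraries lay within the female range. Its genotype effects were small against their errors (0.11, SE 0.27, in females and 0.24, SE 0.58, in males), and the male value was 1.04 without male WT replicate 4 and -0.07 without male LKO replicate 1.

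Cyp26b1, which encodes a hydroxylase that clears retinoic acid, was high in the same male library. Its values were 7.9, 4.7, 6.31 and 22.4 CPM in male WT, 10.03, 6.78, 2.53 and 5.14 in male LKO, 9.94, 6.0, 3.4 and 7.42 in female WT, and 4.78, 7.93, 7.85 and 5.03 in female LKO replicates. Male WT replicate 4 stood apart, and the other 15 libraries overlapped. The log2 fold change of -0.76 (SE 0.64) in males and -0.07 (SE 0.31) in females did not pass edgeR's test (adjusted p = 0.999 and 0.941). Without male WT replicate 4 the male value was -0.04. The summed level of 6 adipocyte markers, a list chosen after values were seen, was 220 CPM in male WT replicate 4, against 80.0 to 118 in the other male libraries. It was higher still in female LKO replicate 2 (260 CPM), where Cyp26b1 was at 7.93 and Dhrs9 at 2.93 CPM, and it was 176 and 173 in female LKO replicates 1 and 3. The part of adipocytes in these values was not tested. The correlation of Dhrs9 with Cyp26b1 within groups did not pass the threshold of 0.05 (Pearson's r = 0.78, Spearman's rho 0.71, n = 16, permutation adjusted p = 0.0565 and 0.081 over 6 relations). Without the 2 libraries farthest from the median, r was 0.54.

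Across the 10 members, the female log2 fold changes ran from -0.65 (Rdh7) to 0.38 (Rbp2). Their median was -0.26, against 0.01 over all 15298 genes tested, and 8 of the 10 were negative, against 48.2% of all genes. In females 1 of 10 members was called, beside 0.0392% of all genes, and 1 of 10 (Aldh1a1) had all 4 LKO libraries below all 4 WT libraries, beside 3.67% of all genes. By edgeR 5 members, all lower, had an unadjusted p below 0.05 (50%, beside 11.7% of all genes). Since this contrast chose Aldh1a1, nothing is read from these counts. In males 8 of 10 were negative as well, with a median of -0.11 against 0.00 over all genes, of which 50.8% were negative. Of the members, 0 were called by edgeR in males, beside 0.0527% of 15169 genes, and 0 by DESeq2, which called 59 of all genes. By edgeR 1 (Aldh1a3, higher) had an unadjusted p below 0.05, beside 5.29% of all genes. None of the 10 had all male LKO libraries below all male WT libraries, beside 1.25% of all genes.

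**Figure D4:**
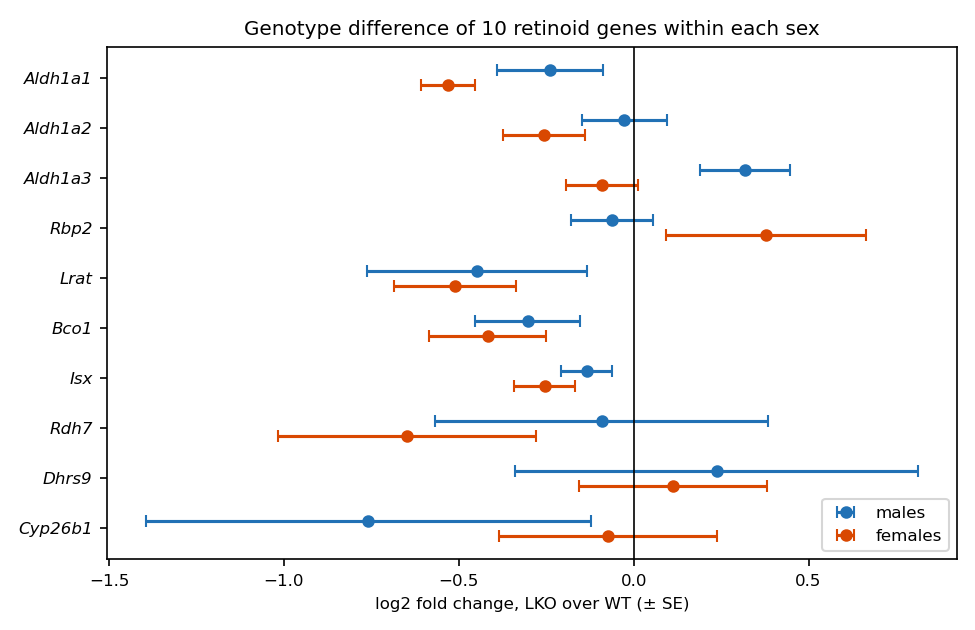
The x axis is the log2 fold change of LKO over WT from edgeR, with bars of ± 1 SE, and each row is a gene, with males in blue and females in orange. In both sexes 8 of 10 points lie below 0, and Aldh1a1 in females is at -0.53.

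Over both sexes edgeR called 0 of the 10 members, beside 0.269% of 15598 genes. DESeq2 called 1 (Aldh1a1), and 222 of all genes. By edgeR 4 (Aldh1a1, Lrat, Bco1 and Isx, all lower) had an unadjusted p below 0.05, beside 11.2% of all genes. These 4 include Aldh1a1, which the female values chose. The genotype effect differed between the sexes for 0 of 10 members, beside 0% of all genes, with 1 (Aldh1a3) at an unadjusted p below 0.05, beside 5.64% of all genes, and 0 by DESeq2. Both comparisons use the same libraries as those within each sex, including the female libraries that chose Aldh1a1.

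The comparison of the sexes, averaged over genotype, is not known to have entered the choice of members. Here edgeR called 1 of 10 members, beside 11.0% of all 15598 genes. At an unadjusted p below 0.05 were 3 higher and 1 lower (40%, beside 29.3% of all genes). Dhrs9 was higher in males, at a mean of 4.45 CPM against 2.03 in females, with a log2 difference of 1.16 (SE 0.32, adjusted p = 0.031). The groups overlapped, and the highest male libraries were WT replicate 4 and LKO replicate 1. Without male LKO replicate 1 or 3, female WT replicate 2, or female LKO replicate 1 or 3, the adjusted p lay between 0.0542 and 0.0641, and without the B-cell-rich libraries the log2 difference of 1.25 had an adjusted p of 0.105. Without those libraries Rbp2 was higher in males by 0.42 on the log2 scale (adjusted p = 0.0493).

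Isx had a mean of 171 CPM in males and 152 in females (log2 difference 0.19, SE 0.06, edgeR adjusted p = 0.0501), and Bco1 a mean of 11.3 CPM in males and 8.96 in females (0.35, SE 0.12, adjusted p = 0.0604). Both missed the threshold narrowly. Aldh1a1 had 164 CPM in males and 189 in females (-0.18, SE 0.09, adjusted p = 0.205), and Rdh7 had 2.9 and 4.8 CPM (-0.69, SE 0.32, adjusted p = 0.167). In this fit the sexes were not shown to differ in these 4 genes, while DESeq2 called Isx (adjusted p = 0.0287) and Bco1 (0.0321). The other 5 members had edgeR adjusted p from 0.404 (Aldh1a2) to 0.806 (Aldh1a3).

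The wider pathway was taken as 59 other genes of carotenoid and retinoid uptake, transport, oxidation, breakdown and signalling, with known retinoic acid targets. Of these, 47 passed the filter on low counts in females and in males, and 48 over all libraries. In females edgeR called 0 of 47 genes, beside 0.0392% of all genes, and DESeq2 called 1. DESeq2 called 156 of all genes. It used another filter on low counts, so its counts are given without a share. At an unadjusted p below 0.05 were 4 higher and 3 lower genes (14.9%, beside 11.7% of all genes). The median log2 fold change was 0.09. In males edgeR called 0 of 47, beside 0.0527% of all genes. DESeq2 called 1 (Rdh9), and 59 of all genes. By edgeR 4 higher and 0 lower genes had an unadjusted p below 0.05 (8.51%, beside 5.29% of all genes), and the median was 0.02.

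Named by size, the female differences above were Stra6, the receptor that takes up retinol from its plasma carrier (1.40, SE 0.86), Lpl, lipoprotein lipase (0.62, SE 0.29), and Fabp5, a carrier of fatty acids and retinoic acid (0.52, SE 0.24). Below were Bco2, which cleaves carotenoids off centre (-0.41, SE 0.21), Rbp7, a cellular retinol-binding protein (-0.34, SE 0.11), and Rdh11, a retinaldehyde reductase (-0.28, SE 0.07). Rbp7 and Rdh11 had all 4 female LKO libraries below all 4 WT libraries, beside 3.67% of all genes, and their edgeR adjusted p was 0.313 and 0.241. Both were named by size, so the order is not read as a result about the list. The list also held the opposite order, as for Tgm2, at 486.8 to 588.7 CPM in female LKO and 396.5 to 463.5 in female WT.

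Stra6 followed the B-cell markers by library. It reached 10.7 CPM in female LKO replicate 3, 6.41 in female LKO replicate 2, 4.25 in male WT replicate 2 and 2.41 in female WT replicate 3, and stayed at 0.88 to 1.72 in the other 12. Those 4 are the B-cell-rich libraries. Without them the female log2 fold change of Stra6 was -0.51. The part of B cells in its level was not tested.

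**Figure D5:**
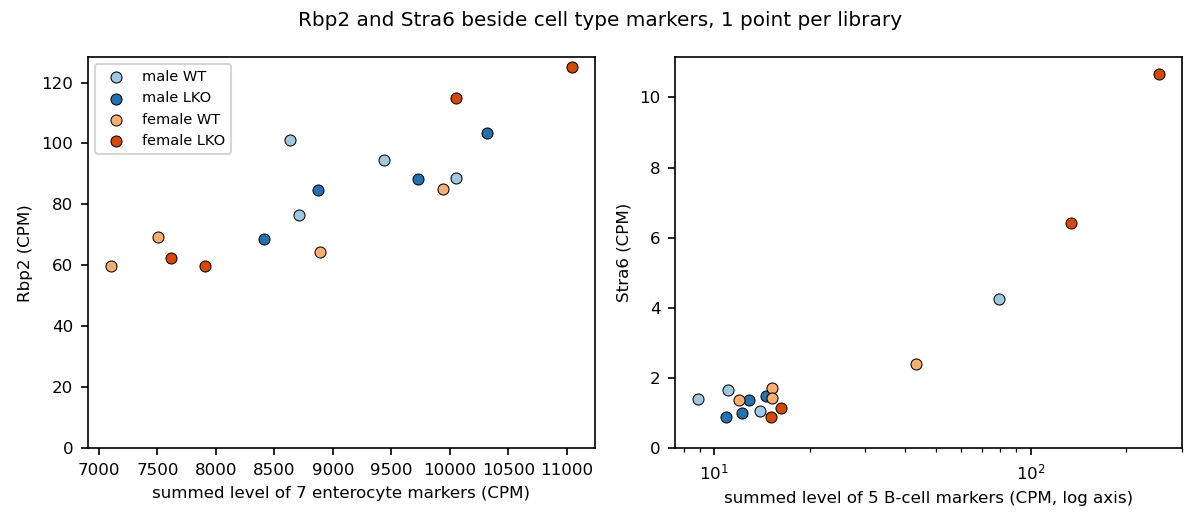
Left, Rbp2 (CPM) against the summed CPM of 7 enterocyte markers, and right, Stra6 (CPM) against the summed CPM of 5 B-cell markers on a log axis, with 1 point per library coloured by group. The 2 female LKO libraries with the highest Rbp2 (115 and 125 CPM) have enterocyte sums of 10050 and 11040 CPM, and Stra6 is above 2 CPM in the 4 libraries with B-cell sums above 40 CPM only.

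In males the largest higher values were those of Rdh16 (0.94, SE 0.50), Rdh9 (0.59, SE 0.15) and Pnliprp2 (0.54, SE 0.17). Rdh9 and Rdh16 encode retinol and sterol dehydrogenases of the Rdh7 cluster, and Pnliprp2 encodes a lipase that splits dietary lipid esters. All 4 male LKO libraries were above all 4 WT libraries for Rdh9, with means of 59.9 ± 13 and 39.8 ± 5.34 CPM, beside 1.63% of all genes with that order. The adjusted p was 0.457 by edgeR and 0.0149 by DESeq2. Exons of Rdh9 overlap those of Rdh16f1 on the same strand in 4 pairs. Rdh16 reached 23.3 CPM in male LKO replicate 3 and 8.74 or less in the other male libraries, and its log2 fold change without that library was 0.31. Of the windows of 100 bases, 39.9% in Rdh9 and 31.9% in Rdh16 came within 4 mismatches of another gene of the cluster. Identical windows were 6.43% in Rdh9 and 6.66% in Rdh16, so these levels are in part uncertain. Rdh1, another gene of the cluster, had log2 fold changes of 0.19 (SE 0.23) in males and -0.14 (SE 0.24) in females, where Rdh9 had 0.17 (SE 0.21) and Rdh16 -0.01 (SE 0.24, and above 0 in some other settings). Below were Stra6 (-0.79, SE 0.40), Rbp7 (-0.22, SE 0.12) and Lpl (-0.20, SE 0.43).

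Over both sexes edgeR called 0 of 48 genes, beside 0.269% of all genes. DESeq2 called 3, among them Akr1b8 (adjusted p = 0.0223) and Rdh11 (0.0354), and 222 of all genes. By edgeR 3 higher and 4 lower genes had an unadjusted p below 0.05 (14.6%, beside 11.2% of all genes). Named by size were Pnliprp2 (0.49, SE 0.23), Rdh16 (0.46, SE 0.31) and the aldo-keto reductase Akr1b8 (0.45, SE 0.12), and below them Rbp7 (-0.29, SE 0.08), Rdh11 (-0.22, SE 0.06) and Rarg, a retinoic acid receptor (-0.16, SE 0.07). The smallest adjusted p of the list was that of Tgm2, the transglutaminase induced by retinoic acid, with a log2 fold change of 0.28 (SE 0.06, adjusted p = 0.0566) and means of 461 CPM in WT and 559 in LKO. Tgm2 was singled out after its value was seen. Cyp26a1, a classical retinoic acid target, was at 0.11 CPM or less in every library and could not be tested.

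The genotype effect differed between the sexes in 0 of 48 genes by edgeR, beside 0% of all genes, and in 0 by DESeq2. By edgeR 0 higher and 1 lower had an unadjusted p below 0.05 (2.08%, beside 5.64% of all genes). Named by size were Rdh16 (0.94, SE 0.57), Bco2 (0.61, SE 0.33) and Rdh9 (0.42, SE 0.28) with the higher value in males, and Stra6 (-2.20, SE 1.03), Lpl (-0.83, SE 0.54) and Cd36, a fatty acid and carotenoid transporter (-0.66, SE 0.35), with the higher value in females.

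Between the sexes edgeR called 4 of the 48 genes, beside 11.0% of all genes. Cd38, a retinoic acid target, was higher in males (226 against 179 CPM, log2 difference 0.34, SE 0.09, adjusted p = 0.0219). Pnliprp2 was lower in males, at 74.9 against 156 CPM (-1.06, SE 0.23, adjusted p = 0.0148). Stra6l, a retinol transporter related to Stra6, was at 20.6 against 25.0 CPM (-0.28, SE 0.07, adjusted p = 0.0246), and Scarb1, the carotenoid and lipid receptor repressed by ISX, at 14.5 against 17.5 CPM (-0.27, SE 0.08, adjusted p = 0.0429). Scarb1 lost its call in 14 of 26 alternatives, 11 of them with 1 library left out (adjusted p up to 0.0886), namely every library but male WT replicate 4, female WT replicates 1 and 3 and female LKO replicates 2 and 4. Without the B-cell-rich libraries the adjusted p was 0.121 for Pnliprp2 (log2 difference -0.85), 0.0606 for Stra6l and 0.0755 for Scarb1, and with the title number as a covariate it was 0.0523 for Pnliprp2, 0.123 for Cd38 and 0.156 for Scarb1. Stra6l also lost its call without male LKO replicate 1 or 3 (adjusted p up to 0.0542). Of the others named by size, Rdh16 (0.18, SE 0.30), Rdh11 (0.17, SE 0.06), Stra6 (-0.86, SE 0.59) and Rdh12, a retinaldehyde reductase (-0.69, SE 0.25), did not pass by edgeR. DESeq2 called Rdh11 (adjusted p = 0.0429). With 1 library left out, the edgeR adjusted p ran from 0.0296 to 0.128 for Rdh11 and from 0.0358 to 0.15 for Rdh12.

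The genes whose level followed Aldh1a1 most closely across the 16 libraries, after removal of group means and among 11771 genes with a mean of at least 5 CPM, were Fam120aos (Pearson's r = 0.85, Spearman's rho 0.79), Mtmr12 (0.84 and 0.92), Dclk3 (0.82 and 0.89), Rab11b (0.82 and 0.63) and Cldn8 (0.81 and 0.67). They were the highest of 11771 values, and the libraries share depth and composition, so no p is given. Of the members, Rdh7 had the highest r with Aldh1a1 (0.51), and Aldh1a7 had an r of 0.50 (rho 0.55, permutation adjusted p = 0.118 and 0.123, and 0.61 without the 2 libraries farthest from the median).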

How the data were processed

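Per the study's methods, the authors prepared stranded mRNA libraries, sequenced 100-base single-end reads, aligned them to mm10 with STAR 2.5.2 (1 position, at most 4 mismatches) and deposited raw exon counts per gene from HOMER 4.10, with 1 transcript kept per gene. The counting strand and the annotation version are not given in the sources used here. Groups were read from the sample titles.

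Tests used edgeR 4.0.16 (quasi-likelihood) under R 4.3.3 on the counts as deposited, scaled by TMM, filtered by filterByExpr and adjusted over all genes by Benjamini-Hochberg at 0.05. Comparisons within a sex used 8 libraries, and the others all 16. DESeq2 1.42.0, other scalings and filters, covariates and left-out libraries were alternatives. Correlations used log2 CPM (prior count 2) after removal of group means, with 1e+05 permutations within groups. The scripts were tested on simulated counts.

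The members, gene lists and tests were chosen with earlier results of these data known. Named pathway genes were up to 3 higher and 3 lower by log2 fold change at a mean of at least 1 CPM, with those called and, in the comparisons within a sex, the near copies.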

Additional observations from a re-analysis of the deposited data

Results flagged for a closer look

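Dhrs9 was at 9.19 CPM in male WT replicate 4, against 2.2 to 2.6 CPM in the other 3 male WT libraries, a gap beyond Dixon's 95% limit for 4 samples. It was the 1 value so marked among the 40 pairs of a member and a group, where chance marks about 1 in 20. The same library was the highest for Cyp26b1 (22.4 CPM) and, among males, for the summed adipocyte markers (220 CPM). Of all 16 libraries it had the highest sum of the upper small intestine markers (89.9 CPM) and the lowest sum of 4 markers of the lower small intestine (3562 CPM). It was also the lowest for Fabp6 (2662 CPM) and Aldh1a1 (135 CPM). The cause of these values was not tested.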

How the results depend on the processing

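In females edgeR called 6 genes, against 156 by DESeq2, 15 with no filter, 10 by the newer quasi-likelihood method, 15 with the replicate block and 2 without the B-cell-rich libraries, an alternative added after the data were seen. Aldh1a1 was the 1 member called, and 0 were called with the title number as a covariate (log2 fold change -0.55, adjusted p 0.0583), with sets of title numbers (-0.60, 0.0923) or without the B-cell-rich libraries (-0.58, 0.188). With the replicate block it was -0.52 (0.0442). In males edgeR called 8 genes, against 59, 25 with no filter, 16 with the block and 3 with the title number, and over both sexes 42, against 222, 16 with the block, 2 with the title number, 0 with the sets and 5 without the B-cell-rich libraries. DESeq2 over both sexes called Aldh1a1 (-0.39, adjusted p 0.00636). That fit holds the female libraries by which Aldh1a1 was chosen, so no test is read from it. DESeq2 called 1, 1 and 3 pathway genes in these comparisons, and no filter gave 1 over both sexes. Between the sexes 1723 genes were called, 326 with the title number and 897 without the B-cell-rich libraries, with 1 (Stra6l) and 2 pathway genes in place of 4, the second count without Pnliprp2, Stra6l and Scarb1. Members called there were 3 by DESeq2 and 3 with female LKO replicate 1 thinned (Dhrs9, Bco1 and Isx). They were 2 with relative log expression scaling, 2 by the newer method and 2 with the block (Dhrs9 and Isx). With the title number 0 were called, beside 326 of all genes. In those other settings the count of all genes stayed within 1.5 times 1723. The replicate numbers were not taken to pair the samples, since 2 of 8 pairs of the same number and sex had deviations correlated above 0.1 (r from -0.10 to 0.26). The cause of these changes was not tested.

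Some log2 fold changes that were not called turned in sign. In females Rdh16 was 0.003 with DESeq2, 0.014 with upper-quartile scaling and 0.006 with the thinned library, and Rdh9 was -0.029 with the title number, -0.047 with the sets and -0.11 without the B-cell-rich libraries. Dhrs9 was -0.12 with the sets and -0.19 without those libraries, Rdh1 0.13 and 0.21, and Rbp2 -0.22 and Stra6 -0.51 without them. In males the title number gave Rbp2 0.22, Lrat 0.09, Aldh1a7 -0.27 and Rdh1 -0.24, and leaving out the B-cell-rich library gave Aldh1a2 0.00 and Rdh7 0.071. Over both sexes Aldh1a3 was -0.022 with the title number and -0.087 with the sets, Dhrs9 -0.24 with the sets and -0.019 without the B-cell-rich libraries, and Rbp2 -0.14 without them. Without them the interaction of Rbp2 was 0.15 and of Stra6 0.29, and the sex difference of Stra6 0.026.

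With 1 library left out, the counts of genes called ran from 0 to 4 in females, 5 (without male WT replicate 1) to 29 (without male WT replicate 4) in males, 5 to 102 over both sexes (without the same libraries), 0 to 1 for the interaction (1 without female WT replicate 1) and 934 (without male LKO replicate 3) to 1956 (without female WT replicate 3) between the sexes. Members called ran from 0 to 1 in females and over both sexes and from 0 to 2 between the sexes, and pathway genes from 0 to 2 over both sexes and 2 to 5 between the sexes. Aldh1a1 ran from -0.589 to -0.470 in females and, over both sexes, from -0.454 (without male WT replicate 4, adjusted p 0.00846) to -0.344. Both ranges use the female libraries that chose Aldh1a1 and are a description. Signs turned in these ranges: in females Dhrs9 -0.068 to 0.335, Cyp26b1 -0.292 to 0.181, Rdh1 -0.271 to 0.021 and Rdh16 -0.180 to 0.176, and in males Aldh1a2 -0.089 to 0.044, Rbp2 -0.159 to 0.034, Rdh7 -0.387 to 0.178, Dhrs9 -0.072 to 1.042, Lpl -0.389 to 0.338 and Aldh1a7 -0.049 to 0.179. For the interaction they were Lrat -0.266 to 0.196, Bco1 -0.007 to 0.217, Dhrs9 -0.188 to 0.930 and Cyp26b1 -1.038 to 0.039, and between the sexes Aldh1a3 -0.100 to 0.007, Cyp26b1 -0.056 to 0.455 and Rdh16 -0.155 to 0.290. Of 2346 alternative values over 103 results, 2141 kept their direction and side of the threshold, or for counts stayed within 1.5 times. With 4 libraries a group and the wide spread of Rdh7, Dhrs9 and Cyp26b1 between libraries, small differences in these 3 genes were not detectable.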
